A study of Gallus gallus with 8 samples.

Results

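Corneous beta-proteins whose deposited names end in -K and in -F were followed through cultures of primary chicken skin cells. Every feature whose name starts with CBP and ends in one of these letters was taken, which gave 35 of the 24902 features, 15 ending in -K and 20 ending in -F. The tables held 3 libraries of keratinocytes from skin equivalents, cultures in which the cells stratify and differentiate in 3 dimensions, 1 library of subconfluent keratinocytes, 1 library of confluent fibroblasts and 3 libraries of keratinocytes in a confluent monolayer. All cells were primary, and no genetic change or added agent is given in the labels. The titles also carry a code, a d number and the mark wo, none of them explained. The code is 20 in the subconfluent library, monolayer 1 and skin equivalent 1, 34 in monolayer 2 and skin equivalent 2, and 56 in monolayer 3 and skin equivalent 3. The d number is 8 in all monolayers, 7 in skin equivalent 1 and absent elsewhere. Skin equivalents 2 and 3 and monolayers 2 and 3 carry wo. The labels do not say that the libraries within a group stem from different birds or cultures, so the spread behind each p-value may be technical. Whether RNA of skin equivalents came from the keratinocyte layer alone is not given either.

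Corneous beta-proteins, formerly called beta-keratins, are small structural proteins of birds and reptiles. They are unrelated to the keratins of hair and skin, share a central stretch that folds into beta-sheets, and assemble into the stiff filaments of scales, claws, beaks and feathers. Their genes lie in clusters of many similar copies, some of them within the epidermal differentiation complex, a gene cluster for proteins of the cornified skin layer. The literature on chicken sorts the copies into claw, feather, scale and keratinocyte subfamilies. The files do not spell out the letters -K and -F, and no role of a single copy is given in the sources used here. The numbers in the names fall into blocks: those of -K are 15 and 16, 37 and 38, and 56 to 66, and those of -F run without a gap between 17 and 36.

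Gene counts per library ranged from 27329706 to 36728801, so that 3 counts, used below as the floor of detection, corresponded to 0.0807 to 0.117 CPM (gene counts relative to the scaled library size). The 6 listed keratins of basal keratinocytes summed to 20850 to 29556 CPM in skin equivalents, 40500 CPM in subconfluent keratinocytes, 5.33 CPM in fibroblasts and 10170 to 13878 CPM in monolayers. The 4 listed keratins of simple epithelia summed to 78.3 to 102 CPM in skin equivalents, 1677 CPM in subconfluent keratinocytes, 24.4 CPM in fibroblasts and 3116 to 5211 CPM in monolayers. The 20 features listed for cornifying layers summed to at least 88283 CPM in each skin equivalent, 2668 CPM in subconfluent keratinocytes, 4.44 CPM in fibroblasts and at most 1091 CPM in a monolayer. None of 10 fibroblast, 4 melanocyte and 3 macrophage symbols matched a deposited name, so other cell types could not be checked in this way. In such bulk libraries, fewer cells of a type and less RNA per cell cannot be told apart. In the fibroblast library 2.53% of fragments were ambiguous between genes, against 0.485% to 0.571% in monolayers, and the part of this in the values was not tested.

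The -K and -F sets differed in how much of a library they took and in how they moved between cultures. Of the gene counts, the -K features together took 1.87% ± 0.384 in skin equivalents and 0.00469% ± 0.00207 in monolayers (mean ± SD, n = 3 each). The -F features took 0.00136% ± 0.000282 in skin equivalents and 0.000982% ± 0.000878 in monolayers (mean ± SD, n = 3 each). Per library, the -K set had 417300, 533001 and 613274 counts in skin equivalents 1 to 3 and 1968, 1157 and 968 counts in monolayers 1 to 3. The -F set had 318, 362 and 463 counts in skin equivalents 1 to 3 and 557, 126 and 163 counts in monolayers 1 to 3. Thus every skin equivalent lay above every monolayer in -K counts, whereas for -F monolayer 1 lay above all skin equivalents and monolayers 2 and 3 below them. No test was run on these sums, which are descriptions of chosen lists.

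Within a library, where scaling plays no part, -K counts exceeded -F counts 1312-fold, 1472-fold and 1325-fold in skin equivalents 1 to 3, and 3.53-fold, 9.18-fold and 5.94-fold in monolayers 1 to 3. In subconfluent keratinocytes the excess was 9.89-fold, with 6784 -K and 686 -F counts. The fibroblast library had 2 -K counts and 0 -F counts. As shares of gene counts, subconfluent keratinocytes had 0.0185% in -K (95% exact binomial interval 0.0180% to 0.0189%) and 0.00187% in -F (0.00173% to 0.00201%), intervals that cover counting error only.

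Detection also set the sets apart. All 15 -K features had a count in each skin equivalent and in the subconfluent library, and 11, 11 and 13 of them had one in monolayers 1 to 3. Above the floor of 3 counts were 15 in each skin equivalent, 11 in the subconfluent library and 10, 10 and 9 in monolayers 1 to 3. In the subconfluent library 4 of them had 1 count. Of the 20 -F features, 9 were at 0 in all 8 libraries and 6 had between 1 and 10 counts over all libraries together. The number of -F features with a count was 4, 6 and 6 in skin equivalents 1 to 3, 9 in subconfluent keratinocytes, 0 in fibroblasts, and 7, 6 and 4 in monolayers 1 to 3. Above 3 counts were 3, 4 and 2 in skin equivalents 1 to 3, 5 in subconfluent keratinocytes, and 3, 3 and 2 in monolayers 1 to 3. Fragments that map to several places are not part of the feature counts, so near-identical copies may be counted too low or not at all, and the values of single copies are uncertain to that extent. Feature lengths are not given, so shares of a set's counts below are shares of counted fragments and not of molecules.

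**Figure D1:**
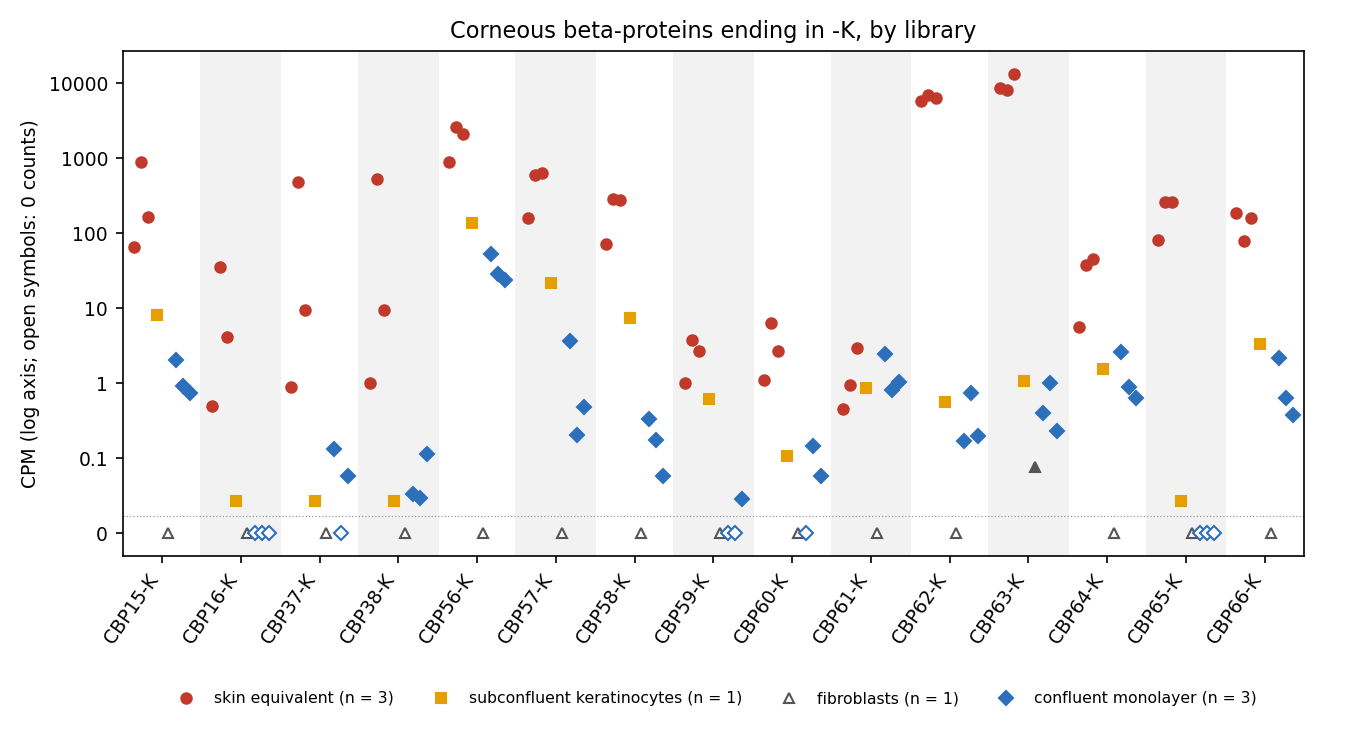
CPM (log axis) of the 15 -K features, 1 symbol per library, with skin equivalents as red circles, the subconfluent library as orange squares, the fibroblast library as grey triangles and monolayers as blue diamonds, and open symbols at 0 for libraries with 0 counts. For every feature except CBP61-K the skin equivalents lie above the monolayers, and CBP63-K and CBP62-K reach the highest values.

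Single copies carried the -K set, and different ones in different cultures. In skin equivalents 1 to 3, CBP63-K held 54.8%, 38.8% and 57.0% of the -K counts and CBP62-K held 36.0%, 33.2% and 27.2%. CBP56-K came next in each, with 5.59%, 12.6% and 9.04%. In subconfluent keratinocytes CBP56-K held 75.1% of the -K counts, and in monolayers 1 to 3 it held 78.7%, 83.7% and 85.5%. The share of CBP63-K was 0.590% in subconfluent keratinocytes and 0.610%, 2.94% and 0.826% in monolayers 1 to 3. The top copy of every keratinocyte monolayer thus differed from the top copy of every skin equivalent. The smaller share of CBP56-K in skin equivalents did not come with a lower level, as its own counts below show.

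**Figure D2:**
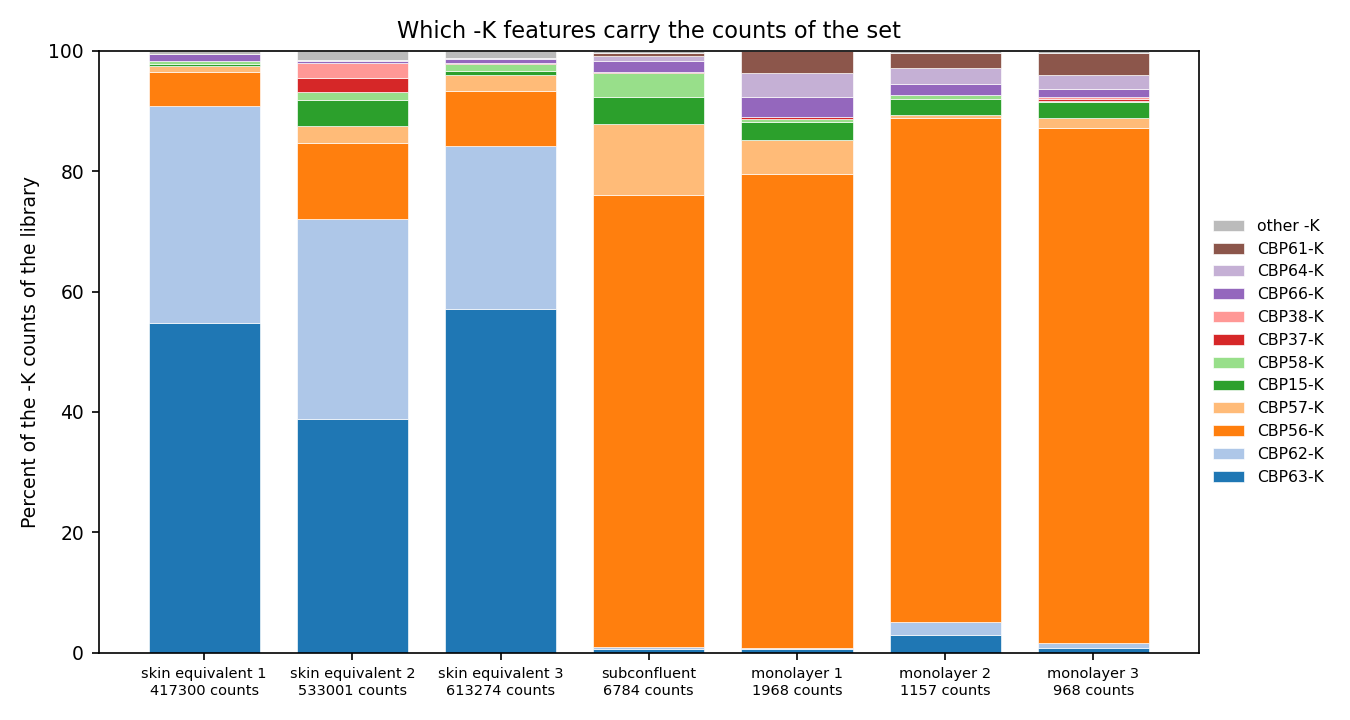
Percent of the -K counts of each library held by single features, as stacked bars for skin equivalents 1 to 3, the subconfluent library and monolayers 1 to 3, with the total of -K counts under each bar. CBP63-K and CBP62-K fill most of each skin equivalent's bar, and CBP56-K fills between 75.1% and 85.5% of the others. The fibroblast library, with 2 counts, is not drawn.

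The first comparison set skin equivalents against confluent monolayers in a fit of those 6 libraries, with p-values adjusted over all 13230 features tested. All 15 -K features were tested, and 14 rose and 0 fell, where 25.9% of all features tested were called higher and 23.6% lower. For 6 of the 15 (CBP16-K, CBP37-K, CBP38-K, CBP59-K, CBP60-K and CBP65-K) no monolayer reached the level the filter on low counts asks for. These passed it through skin equivalents and could hardly be called other than higher. Of the other 9, 8 rose. In 14 of 15 every skin equivalent lay above every monolayer, as in 32.4% of all features tested, and every skin equivalent lay below in 29.0%. For the 6 this too was nearly fixed by the filter, and of the 9 it held in all but CBP61-K. The median log2 fold change was 8.33 over the 15 (8.24 with the features at 0 counts in monolayers set to their lower bound), beside 0.08 over all features tested. This median includes the 6. Over the 9 the log2 fold changes ran from -0.01 (CBP61-K) to 14.17 (CBP63-K). Of the 20 -F features, 2 were tested and 0 were called by edgeR in either direction, where 49.5% of all features tested were called. An unadjusted edgeR p under 0.05 was found in 0 of the 2, beside 7489 of all 13230 features tested. DESeq2 and limma-voom also called 0 of the 2.

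CBP63-K, the most counted member, had 8763, 8091 and 13415 CPM in skin equivalents 1 to 3, against 0.404, 0.996 and 0.229 CPM in monolayers 1 to 3. Its log2 fold change was 14.17 ± 0.79 (standard error, adjusted p = 6.34e-05 by the edgeR quasi-likelihood test), and 14.94 without monolayer 2. CBP62-K had 5755, 6918 and 6401 CPM in skin equivalents 1 to 3, against 0.168, 0.733 and 0.200 CPM in monolayers 1 to 3. The skin equivalents differed by no more than 1.20-fold here, the narrowest spread of any -K feature. The log2 fold change was 14.06 ± 0.76 (edgeR adjusted p = 5.66e-05), or 15.03 without monolayer 2. In both features monolayer 2 was the highest monolayer, and the groups did not overlap.

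CBP56-K had 894, 2630 and 2127 CPM in skin equivalents 1 to 3, against 52.1, 28.4 and 23.7 CPM in monolayers 1 to 3. It was the only -K feature above 4 CPM in any monolayer, and its rise, with a log2 fold change of 5.76 ± 0.58 (edgeR adjusted p = 3.76e-04), was thus a rise from a level well above the floor. CBP57-K had 159, 594 and 641 CPM in skin equivalents 1 to 3, against 3.67, 0.205 and 0.487 CPM in monolayers 1 to 3. Monolayer 1 stood above monolayers 2 and 3, and the log2 fold change was 8.33 ± 1.27 (edgeR adjusted p = 0.00199) with it and 10.27 without it. CBP58-K had 71.4, 286 and 275 CPM in skin equivalents 1 to 3, against 0.337, 0.176 and 0.0573 CPM in monolayers 1 to 3. Its log2 fold change was 10.12 ± 0.85 (edgeR adjusted p = 2.10e-04). In CBP56-K, CBP57-K and CBP58-K alike, skin equivalent 1 was the lowest of the skin equivalents and monolayer 1 the highest of the monolayers, without overlap between the groups.

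CBP65-K had 82.2, 262 and 265 CPM in skin equivalents 1 to 3 and 0 counts in each monolayer. Against the floor of 3 counts per library it was at least 2215-fold higher in skin equivalents, a bound that ranged from 1877 to 2874 when single skin equivalents were left out. CBP16-K, the other -K feature at 0 counts in all monolayers, had 13, 911 and 108 counts in skin equivalents 1 to 3 and was at least 146-fold higher. Skin equivalent 2 carried that bound, which was 25.3-fold without it. CBP59-K had 26, 98 and 70 counts in skin equivalents 1 to 3 and 1 count over all monolayers, a ratio of 246 with a 95% counting interval of 43.7 to 9781.

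CBP66-K had 184, 78.7 and 162 CPM in skin equivalents 1 to 3, against 2.19, 0.645 and 0.372 CPM in monolayers 1 to 3, and was the only -K feature highest in skin equivalent 1. Its log2 fold change was 7.06 ± 0.76 (edgeR adjusted p = 4.99e-04), or 8.01 without monolayer 1. CBP64-K and CBP60-K were at lower levels, with at most 45.5 and 6.41 CPM in a skin equivalent. CBP64-K rose by 4.42 ± 0.90 on the log2 scale (5.18 without monolayer 1). CBP60-K rose by 5.53 ± 1.02, with 4.69 without skin equivalent 2 and 6.61 without monolayer 2. It had no monolayer above the filter level, so it could hardly be called other than higher.

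CBP61-K was the -K feature that did not pass the test. It had 0.460, 0.938 and 2.92 CPM in skin equivalents 1 to 3, against 2.49, 0.820 and 1.03 CPM in monolayers 1 to 3, with overlapping groups. The log2 fold change was -0.01 ± 0.75 (edgeR adjusted p = 0.988), which bounds the change loosely and changed sign with the library left out (0.52 without monolayer 1, -1.03 without skin equivalent 3). Its number lies directly before those of CBP62-K and CBP63-K, the features with the largest fitted changes among those with counts in monolayers.

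**Figure D3:**
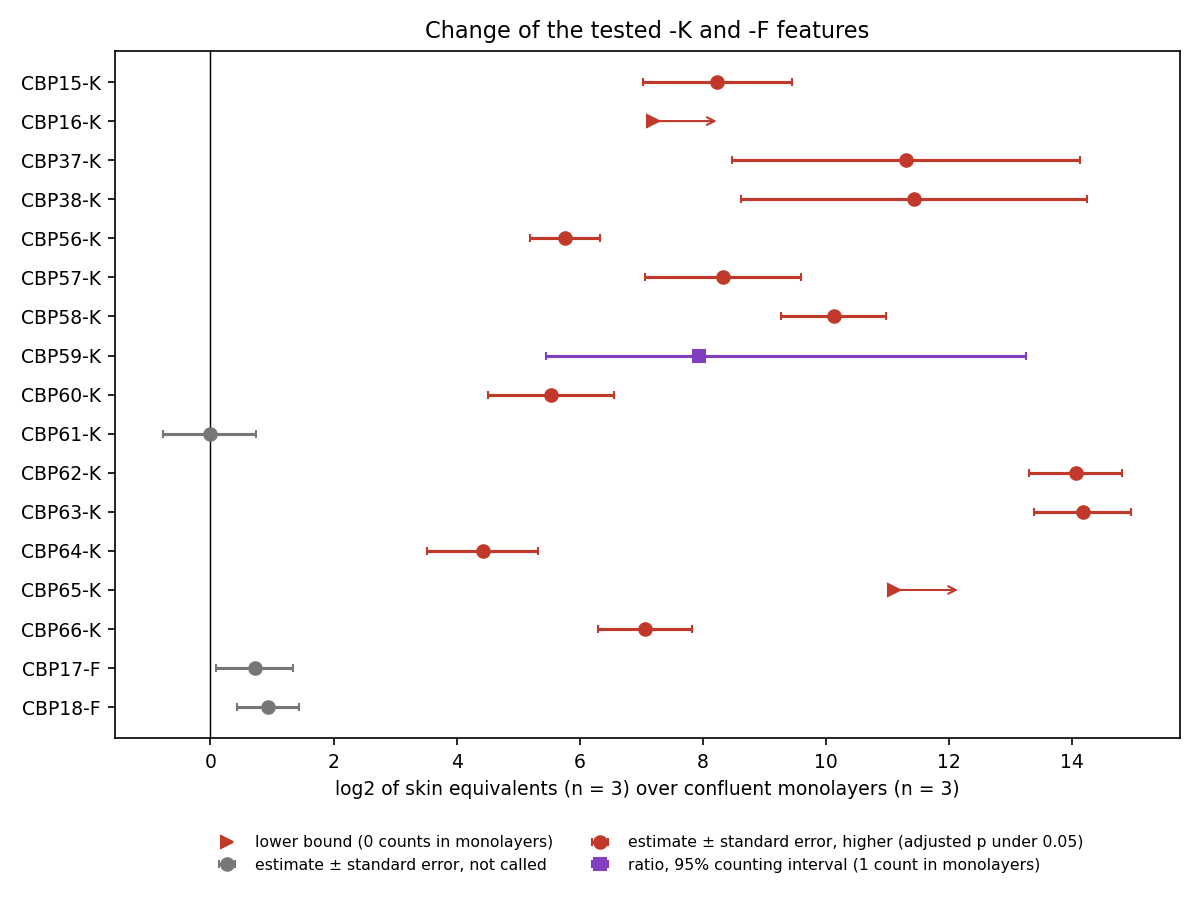
The log2 ratio of skin equivalents over monolayers (3 libraries each) for the 15 -K features and the 2 tested -F features. Circles are edgeR estimates with standard errors, arrows are lower bounds for features at 0 counts in monolayers, and the square is a ratio with its 95% counting interval. CBP61-K, CBP17-F and CBP18-F lie near 0, and the other -K features lie above 4.

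Skin equivalents differed from each other most in the -K features numbered 15, 16, 37 and 38. CBP38-K had 0.996, 522 and 9.55 CPM in skin equivalents 1 to 3, against 0.0337, 0.0293 and 0.115 CPM in monolayers 1 to 3. CBP37-K, named here for its likeness to CBP38-K after its values were seen, had 0.881, 482 and 9.48 CPM in skin equivalents 1 to 3, against 0.135, 0 and 0.0573 CPM in monolayers 1 to 3. Skin equivalent 2 thus exceeded skin equivalent 1 by 524-fold and 547-fold in these features. Their log2 fold changes over monolayers were 11.43 ± 2.81 and 11.30 ± 2.82 (edgeR adjusted p = 0.0130 and 0.0139), and 6.36 and 6.29 without skin equivalent 2. Both calls were lost without monolayer 1 (edgeR adjusted p = 0.0532 and 0.0512) and with limma-voom (adjusted p = 0.196 and 0.186). DESeq2 gave no adjusted p for either feature. No monolayer was above the filter level in CBP37-K or CBP38-K, so these could hardly be called other than higher.

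CBP15-K had 66.5, 880.5 and 164 CPM in skin equivalents 1 to 3, against 2.05, 0.908 and 0.745 CPM in monolayers 1 to 3. Its log2 fold change was 8.24 ± 1.22 (edgeR adjusted p = 0.00175), or 6.55 without skin equivalent 2. CBP15-K and CBP16-K were likewise highest in skin equivalent 2 and lowest in skin equivalent 1, with 13.2-fold and 71.5-fold between these libraries. Among the 11 features numbered 56 to 66, by contrast, the highest skin equivalent exceeded the lowest by 1.20-fold to 8.07-fold (median 3.84), 5 were highest in skin equivalent 2, 5 in skin equivalent 3 and 1 in skin equivalent 1. Together the features numbered 15, 16, 37 and 38 held 4.40% plus 4.82% of the -K counts of skin equivalent 2, and at most 0.713% per pair in skin equivalents 1 and 3. Skin equivalent 1, whose title lacks the mark wo that those of skin equivalents 2 and 3 carry, was the lowest skin equivalent in 13 of the 15 -K features. How many of all features were lowest in skin equivalent 1 was not computed. Its share of multimapping fragments was 7.06%, against 8.66% and 8.37% in skin equivalents 2 and 3, and the part of these differences in the spread was not tested.

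The corneous beta-proteins with other endings peaked in the same library. All 21 -S and all 14 -C features were highest in skin equivalent 2. The share of all features highest there was not computed. The summed level of -S was 77.7, 8126 and 584 CPM in skin equivalents 1 to 3 and at most 2.66 CPM in a monolayer, and that of -C was 349, 2203 and 341 CPM in skin equivalents 1 to 3 and at most 1.18 CPM in a monolayer. CBP53-S, the -S feature with the highest mean, had 469, 48550 and 3880 counts in skin equivalents 1 to 3. CBP11-C, that of -C, had 4265, 12783 and 2947 counts. In skin equivalents against monolayers, 25.9% of all features tested were called higher and 23.6% lower. Among the lists, 10 of 10 tested -S, 14 of 14 tested -C and 24 of 27 tested features with names ending in -EDC rose and 0, 0 and 1 fell. The medians over those tested were 11.21, 11.27 and 8.37 (8.41, 9.50 and 8.37 with features at 0 in monolayers set to their bound). Of those tested, 3 -S and 5 -C features were at 0 counts in monolayers, so only rises could be called for them. In the -EDC list 1 tested feature was at 0 counts in a group. How the others passed the filter was not listed, and nothing is read from the rank of the -K set among these lists.

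**Figure D4:**
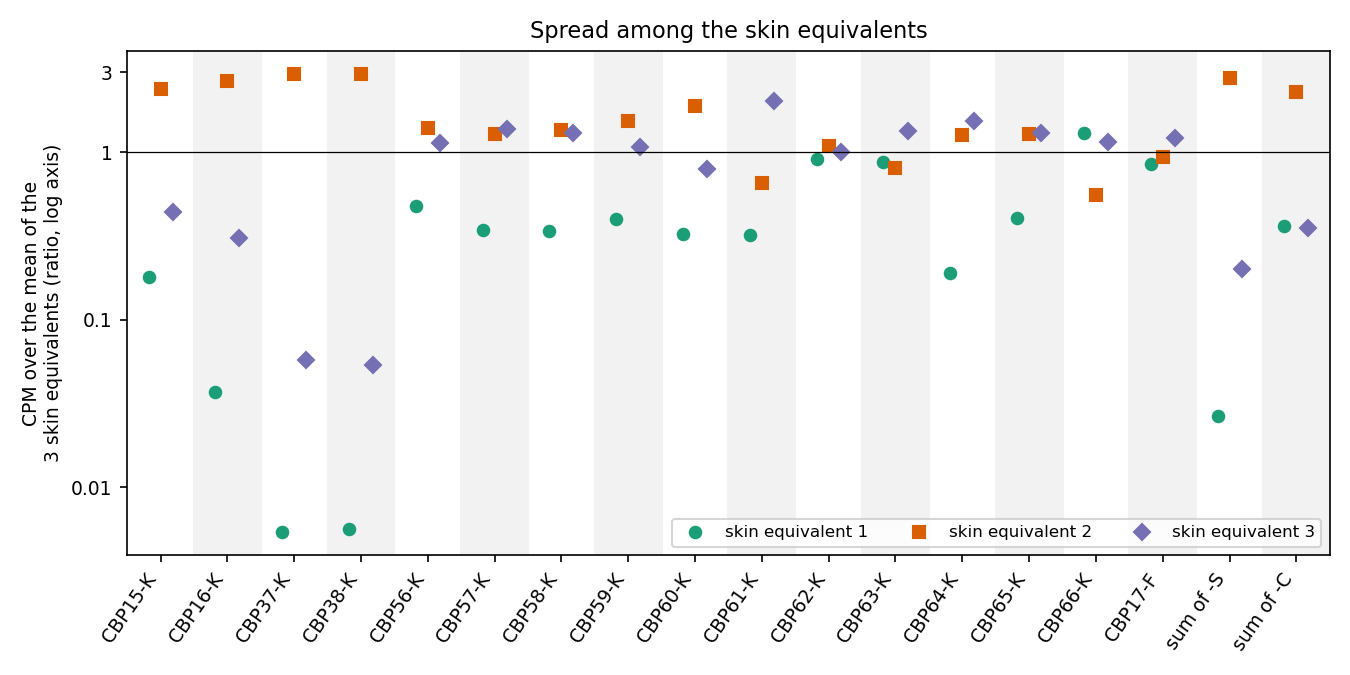
CPM in each skin equivalent divided by the mean of the 3 skin equivalents (log axis) for the 15 -K features, CBP17-F and the summed -S and -C sets, with circles, squares and diamonds for skin equivalents 1, 2 and 3. CBP15-K, CBP16-K, CBP37-K, CBP38-K and both sums have skin equivalent 2 far above the others, while CBP62-K, CBP63-K and CBP17-F lie close to the line at 1.

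The -F set rested on a single copy in each culture that held it. CBP17-F took 94.7%, 90.1% and 93.7% of the -F counts in skin equivalents 1 to 3, 96.2% in subconfluent keratinocytes, and 92.6%, 84.9% and 91.4% in monolayers 1 to 3. Its level was 11.5, 12.7 and 16.6 CPM in skin equivalents 1 to 3, 17.8 CPM in subconfluent keratinocytes, 0 in fibroblasts, and 17.4, 3.14 and 4.27 CPM in monolayers 1 to 3. Skin equivalents lay within 1.44-fold of each other, and monolayer 1 was above all of them while monolayers 2 and 3 were below. The log2 fold change of skin equivalents over monolayers was 0.72 ± 0.63 (edgeR adjusted p = 0.375).

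Monolayer 1 decided that value. Without it the log2 fold change of CBP17-F was 1.77 and passed the test (edgeR adjusted p = 0.00419), and in a fit of replicates 2 and 3 of both groups, whose titles carry the mark wo, unexplained in the sources used here, it was 1.89 (edgeR adjusted p = 0.00431). In the libraries without this mark, 1 per group, CBP17-F had 11.5 CPM in the skin equivalent and 17.4 CPM in the monolayer. With replicates 2 and 3 alone, 14 -K features were called, as with all 6 libraries. These 14 include the 6 with no monolayer above the filter level, which could hardly be called other than higher. The share of all features called in that fit was not computed, so nothing is read from this count.

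CBP18-F, the other -F feature tested, had 8, 21 and 21 counts in skin equivalents 1 to 3, against 11, 10 and 12 counts in monolayers 1 to 3. Its log2 fold change was 0.93 ± 0.50 (edgeR adjusted p = 0.159), with overlapping groups. CBP20-F had 0, 2 and 1 counts in skin equivalents 1 to 3, 5 in subconfluent keratinocytes, and 25, 6 and 1 counts in monolayers 1 to 3. Over the groups its ratio of skin equivalents to monolayers was 0.119 with a 95% counting interval of 0.0233 to 0.381, which ignores the spread between monolayers and rests mainly on monolayer 1. CBP19-F had 6, 5 and 3 counts in skin equivalents 1 to 3, 5 in subconfluent keratinocytes and 2, 0 and 1 counts in monolayers 1 to 3. CBP25-F had 3, 2 and 2 counts in skin equivalents 1 to 3, 5 in subconfluent keratinocytes and 1, 1 and 0 counts in monolayers 1 to 3. For CBP19-F the ratio of skin equivalents to monolayers was 5.93, with a counting interval of 1.65 to 32.2. CBP19-F, CBP20-F and CBP25-F did not pass the filter of this comparison, so their differences have counting intervals at most and no test over libraries.

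**Figure D5:**
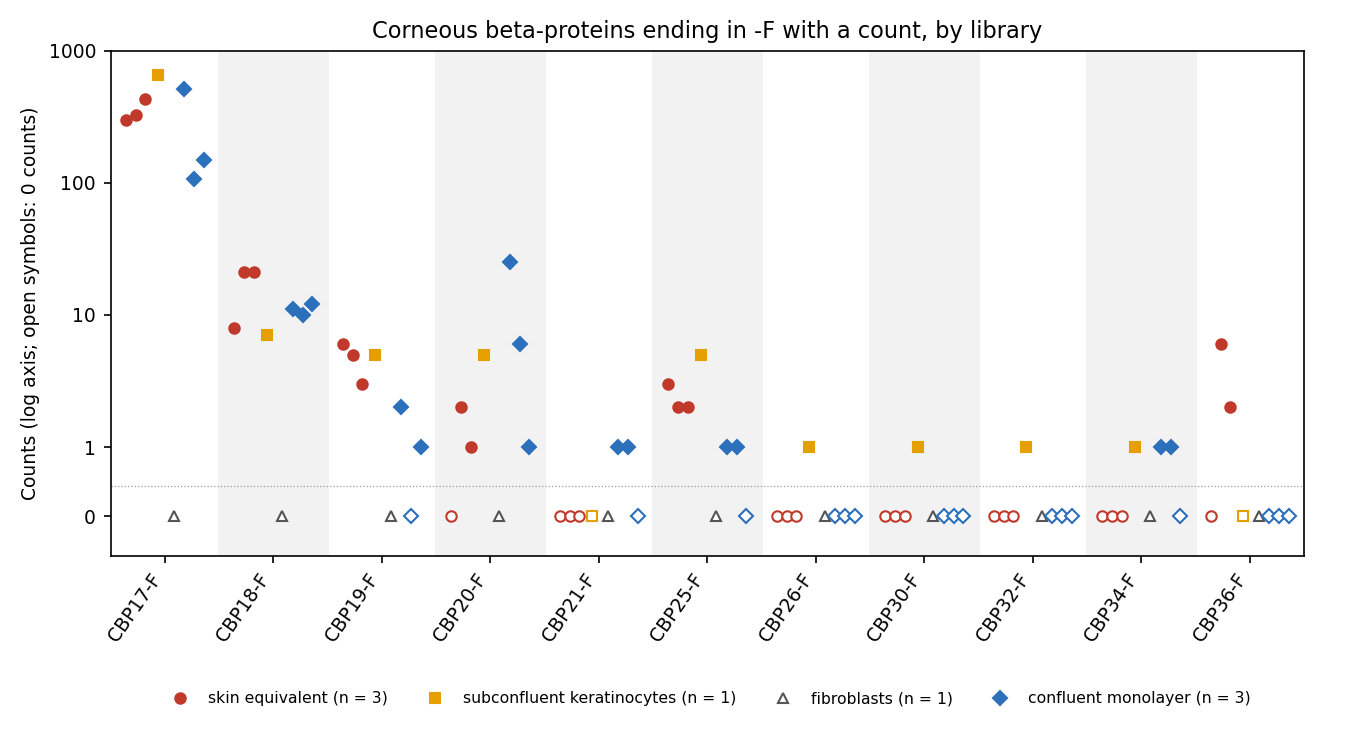
Counts (log axis) of the 11 -F features with a count in any library, 1 symbol per library, coloured by group, with open symbols at 0 for libraries with 0 counts. CBP17-F stands above the other -F features in every library with -F counts, and monolayer 1 lies above the skin equivalents and the other monolayers in CBP17-F and CBP20-F.

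Skin equivalents were next compared with the subconfluent library with all 8 libraries fitted together. The spread within the other groups stands in for that of the single library, which has no replicate check of its own. Of 15 -K features, 6 rose and 0 fell, where 9.15% of 15019 features tested were called higher and 13.3% lower. Those that rose were CBP56-K, CBP58-K, CBP62-K, CBP63-K, CBP65-K and CBP66-K. An unadjusted edgeR p under 0.05 was found in 12 of the 15, beside 5720 of all 15019 features tested. In 14 of 15, all but CBP61-K, every skin equivalent lay above the subconfluent library, as in 38.4% of all features tested (below it in 39.6%). In 5 of the 15 (CBP16-K, CBP37-K, CBP38-K, CBP60-K and CBP65-K) the subconfluent library was under the filter level of 0.347 CPM, so that these could hardly be called other than higher, and 5 of the other 10 rose. The median log2 fold change was 5.40 over all 15 and 0.04 over all features tested. This median and the count of 14 include those 5. Among the other 10, every skin equivalent lay above the subconfluent library in all but CBP61-K. Their log2 fold changes ran from 0.74 (CBP61-K) to 13.45 (CBP62-K). CBP63-K had 1.08 CPM in the subconfluent library, and skin equivalents exceeded it by 13.19 ± 1.32 on the log2 scale (edgeR adjusted p = 0.00131). CBP62-K had 0.565 CPM there, with a log2 fold change of 13.45 ± 1.28 (edgeR adjusted p = 0.00108). CBP56-K, at 137 CPM in the subconfluent library, was higher in skin equivalents by 3.78 ± 0.84 (edgeR adjusted p = 0.0198).

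Of the -K features 4 were at 1 count in the subconfluent library, so their folds are given as ratios with counting intervals. For CBP65-K the ratio of skin equivalents to the subconfluent library was 7527, with an interval that began at 1351. For CBP38-K and CBP37-K the ratios were 6517 and 6029, with intervals that began at 1169 and 1082, and for CBP16-K it was 493, with an interval that began at 88.3. The last 3 rest on skin equivalent 2, and edgeR called none of them in this comparison. Their intervals cover counting error only and ignore the spread between skin equivalents, so they are too narrow. Of the -F features 3 were tested here and 0 were called by edgeR, where 22.5% of features tested were called in either direction. CBP18-F and CBP20-F were under the filter level in the subconfluent library, and CBP20-F also in every skin equivalent. With so few features, nothing is read from the absence of calls. An unadjusted edgeR p under 0.05 was found in 0 of the 3, beside 5720 of all 15019 features tested. DESeq2 and limma-voom also called 0 of the 3. CBP17-F had a log2 fold change of -0.38 ± 0.85 (edgeR adjusted p = 0.772).

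The subconfluent library was also set against the confluent monolayers in the fit of all 8 libraries. It lay above every monolayer in 9 of 15 -K features, where this held for 37.8% of all features tested. In 2 of the 9, CBP16-K and CBP65-K, it did so with 1 count against 0 counts. CBP58-K rose, with 7.51 CPM in the subconfluent library against 0.337, 0.176 and 0.0573 CPM in monolayers 1 to 3 (log2 fold change 5.31 ± 0.84, edgeR adjusted p = 0.0410), and it was the 1 call among 15 -K features, where 0.606% of features tested were called higher and 0.726% lower. This count was 0 without monolayer 2, without monolayer 3, without skin equivalent 2 or without skin equivalent 3, and 2 without monolayer 1, where CBP57-K joined it with a log2 fold change of 5.83 (edgeR adjusted p = 0.0405). CBP56-K had 137 CPM in the subconfluent library (log2 fold change 1.98 ± 0.60, edgeR adjusted p = 0.114) and CBP57-K had 21.6 CPM (3.91 ± 1.21, edgeR adjusted p = 0.117). CBP59-K had 23 counts in the subconfluent library and 1 count over the monolayers, a ratio of 61.1 with a counting interval of 9.92 to 2517 (edgeR adjusted p = 0.0652).

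CBP62-K and CBP63-K, which carried the set in skin equivalents, had log2 fold changes of 0.60 ± 0.75 and 0.98 ± 0.72 between the subconfluent library and the monolayers (edgeR adjusted p = 0.655 and 0.441). Of the 9 -K features with a monolayer above the filter level, 7 were highest in monolayer 1, and CBP62-K and CBP63-K in monolayer 2. The share of all features highest in monolayer 1 was not computed, so nothing is read from this count. Over all features with enough counts, monolayers 2 and 3 were closer to each other than to monolayer 1. Chi-square per degree of freedom, which measures difference relative to counting error, was 254.5 and 237.7 for monolayer 1 against monolayers 2 and 3. It was 23.4 between monolayers 2 and 3. Pairs of skin equivalents had 240.0, 169.4 and 145.7, so such large values were not particular to monolayer 1. The title of monolayer 1 carries the code 20, as do those of the subconfluent library and of skin equivalent 1, the lowest skin equivalent in 13 of 15 -K features. Of 3 tested -F features 0 were called by edgeR, where 1.33% of features tested were called in either direction. CBP18-F and CBP20-F were under the filter level in the subconfluent library, and nothing is read from the absence of calls. An unadjusted edgeR p under 0.05 was found in 0 of the 3, beside 3520 of all 15019 features tested. DESeq2 gave an adjusted p for 1 -F feature here and called 0, and limma-voom called 0 of the 3. CBP17-F had 17.8 CPM in the subconfluent library, close to the 17.4 CPM of monolayer 1 (log2 fold change over all monolayers 1.11 ± 0.83, edgeR adjusted p = 0.448), and it passed the test without monolayer 1 (log2 fold change 2.14, edgeR adjusted p = 0.0400). These comparisons share the monolayers or the subconfluent library with those above, so they are not independent of them.

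Fibroblasts, the cells of the dermis, had 2 counts of CBP63-K and 0 counts of every other -K and every -F feature. Against monolayers, 4 of 15 -K features fell and 0 rose, where 23.0% of features tested were called lower and 21.5% higher (44.5% in all). CBP56-K was at least 299.7-fold lower in fibroblasts (edgeR adjusted p = 0.00159). CBP61-K was at least 12.5-fold lower (edgeR adjusted p = 0.0283), CBP66-K at least 9.22-fold (edgeR adjusted p = 0.0421) and CBP62-K at least 3.17-fold (edgeR adjusted p = 0.0402). Of 3 tested -F features 2 fell: CBP17-F, at least 71.2-fold lower (edgeR adjusted p = 0.00780), and CBP18-F, at least 2.90-fold lower (edgeR adjusted p = 0.0223). The number of -K calls was 2 (CBP56-K and CBP61-K) without skin equivalent 3, which enters this fit through the shared spread. The CBP62-K call was lost whichever skin equivalent was left out. The CBP66-K call was lost without skin equivalent 1 or 3, with limma-voom and without a filter. CBP64-K was called without skin equivalent 1, and CBP15-K without skin equivalent 2. Without monolayer 3 the number of -F calls was 1 (CBP17-F). CBP57-K, CBP64-K and CBP15-K, at 0 counts in fibroblasts, were at least 12.5-fold, 11.9-fold and 10.7-fold lower there by the floor but did not pass the test (edgeR adjusted p = 0.113, 0.0608 and 0.116). In the 6 -K features with no monolayer above the filter level a fall could hardly be called, and CBP65-K and CBP16-K were at 0 counts in both groups.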

How the data were processed

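RNA of 8 libraries was sequenced in paired reads of 75 bases from poly(A)-selected, strand-preserving libraries, per the labels' protocols. Each deposited file gives raw counts, 1 whole number per feature. STAR 2.6.1a, RSEM, DESeq2 1.22.2 and bcl2fastq 2.19.1.403 are named in the submitters' processing notes, which do not say what each was used for. The genome build, annotation and strand setting were not given in the sources used here. From the tables, 4 summary entries (unmapped, multimapping, no feature, ambiguous) were left out of every total and test. Between 64.5% and 71.3% of fragments were given to a gene.

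Counts were tested with the quasi-likelihood test of edgeR 4.0.16 (R 4.3.3, TMM scaling, default expression filter, robust dispersion, Benjamini-Hochberg adjustment at 0.05). The code was run on simulated counts with the same dispersion for every feature and 200 features changed by 2 on the log2 scale. Over the 4 comparisons it recovered 93.5% to 100% of them, and 3.1% to 7.0% of calls were false. The simulated dispersion was set at 0.05 and not taken from the spread of these libraries, so this does not give the error rate in these data. Skin equivalents and monolayers were fitted alone, and lone libraries in a fit of all 8. Standard errors were computed as the size of the log2 fold over the square root of F. CPM were scaled over all 8 libraries. Alternatives were DESeq2 1.42.0, limma-voom (limma 3.58.1), other scalings and filters, and single libraries left out. Folds against groups at 0 counts are bounds against 3 counts per library, and intervals, at 95%, cover counting error only.

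The features given library by library are the 8 -K and 5 -F features of highest mean CPM over the 8 libraries, every -K feature tested but not called and every -F feature tested. CBP16-K, CBP37-K, CBP59-K and CBP66-K were added after their values were seen. The members and lists were chosen with earlier results of these data known. None of the 35 names matched the RefSeq gene table (GRCg7b), 0 in all, so no coordinates are given.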

Additional observations from a re-analysis of the deposited data

Results flagged for a closer look

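The share of fragments that map to several places, which lies outside the feature counts, did not overlap between groups, with the higher values in skin equivalents: 8.03% ± 0.855 in skin equivalents and 4.53% ± 0.0750 in monolayers (mean ± SD, n = 3 each). It was 5.46% in subconfluent keratinocytes and 3.26% in fibroblasts. How many of these fragments come from corneous beta-protein copies, and their part in the -K and -F values, was not tested.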

How the results depend on the processing

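Over all alternatives, 14 -K calls between skin equivalents and monolayers became 9 with a filter of at least 50 counts, which kept 9 -K features. They were 12 with DESeq2, which gave an adjusted p for 13 -K features, 12 with limma-voom and 13 without a filter. With single libraries left out they ranged from 12 to 14. For -F, 1 feature (CBP17-F) was called when replicates 2 and 3 of both groups (those with the mark wo) were fitted alone, and 0 to 1 with single libraries left out. DESeq2 gave an adjusted p for 13 -K features in each of the other comparisons. Its -K calls were 10 for skin equivalents against subconfluent keratinocytes and 3 for subconfluent keratinocytes against monolayers. For fibroblasts against monolayers they were 7. Limma-voom gave 0 -K calls for subconfluent keratinocytes against monolayers. With single libraries left out, the edgeR -K calls of these comparisons ranged from 6 to 9, 0 to 2 and 2 to 4, in the same order. The shares of all features called under the alternatives were not computed, so nothing is read from the size of these counts. For -F, subconfluent keratinocytes against monolayers gave 0 to 1, and fibroblasts against monolayers 1 to 2 and, with at least 50 counts, 1 of 1 tested. The cause was not tested. CBP61-K changed sign without a filter (0 after rounding), with the mark wo as a term (0.03), among only libraries with it (0.95), and without monolayer 1 (0.52), skin equivalent 1 (0.41) or skin equivalent 2 (0.22), and was -1.03 without skin equivalent 3. CBP16-K was not called without a filter (adjusted p = 0.0565). As shares of all fragments, skin equivalents had 1.22% in -K and 0.000891% in -F, and subconfluent keratinocytes 0.0130% and 0.00131%, because the total is larger. The -K part of the counts of both sets was 99.93% in skin equivalents, 90.8% in subconfluent keratinocytes and 84.6% in monolayers. Without CBP63-K and CBP17-F it was 99.99%, 99.6% and 98.3%. Outside skin equivalents this removal took most of the -F counts but few of the -K counts, whose top feature there was CBP56-K. The rise in those cultures was thus fixed in advance, and a removal of CBP56-K was not run.

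Deviations from the group means correlated at -0.056, -0.131 and 0.159 between same-numbered skin equivalents and monolayers (13230 features). Between differently numbered ones the correlations ran from -0.208 to 0.191. Same-numbered libraries share their title code (20, 34 or 56). With 3 libraries a group these correlations cannot show whether they are pairs, so pairing stays unknown. With the replicate block the calls were 14 for -K and 0 for -F. The share of all features called with the block was not computed, so nothing is read from these counts. With 3 libraries a group at most, and 1 for subconfluent keratinocytes and fibroblasts, small changes of features near the floor of 3 counts could not be seen.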

Other observations

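Neighbouring -K numbers kept similar proportions of counts across skin equivalents in some cases and not in others, over pairs chosen after the values were seen. The ratio of CBP37-K to CBP38-K counts was 0.885, 0.924 and 0.992 in skin equivalents 1 to 3, although the counts themselves ranged from 23 to 13358. The ratio of CBP57-K to CBP58-K was 2.23, 2.08 and 2.33 in skin equivalents 1 to 3, 2.87 in subconfluent keratinocytes and 10.9 in monolayer 1, the last from 109 and 10 counts. The ratio of CBP62-K to CBP63-K was 0.657, 0.855 and 0.477 in skin equivalents 1 to 3, and that of CBP15-K to CBP16-K was 134, 24.7 and 39.5. Fragments that map to more than 1 copy are not in these counts, and which of these pairs are nearly identical in sequence was not tested.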
